A study of Mus musculus with 16 samples.

Results

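Glycogen metabolism was followed through 9 genes, picked by symbol and covering the making of glycogen (Ugp2, Gyg, Gys1 and Gbe1), its breakdown (Pygb, Pygm and Phka1) and the targeting of a phosphatase to it (Ppp1r3c and Ppp1r3d). All 9 of 9 symbols were present among the 24060 genes measured in each of 16 RNA sequencing libraries from mouse somatosensory cortex. The mice were C57BL/6J animals of both sexes, aged 3 months, of the genotype Aldh1l1CreERT2-RiboTag, in which tamoxifen, given i.p. at 2 months of age, makes cells that use the astrocyte promoter Aldh1l1 put an HA tag on the ribosomal protein Rpl22. All groups carried both alleles and had received tamoxifen, and the study's methods give a shorter interval between the last injection and the experiment than the labels do. Naïve mice stayed in the home cage, and stressed mice spent 20 min in water and then 90 min in the home cage. From each condition, RNA held by the tagged ribosomes was pulled down with an antibody to HA (IP, the astrocyte translatome) and RNA of the cleared lysate was taken before that step (INPUT, all cell types). Each of the 4 groups had 4 libraries, numbered as replicates by library, namely naïve IP (replicates 2, 8, 11 and 13), stress IP (4, 5, 6 and 15), naïve INPUT (3, 7, 14 and 16) and stress INPUT (1, 9, 10 and 12). By the study's methods, INPUT and IP RNA came from the lysate of the same mouse, but the labels do not pair IP with INPUT libraries. Libraries were therefore compared as independent samples, and p-values measure the spread between them. In every fit that joins IP with INPUT, the p-values ignore that libraries of the 2 fractions share mice.

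Glycogen is the brain's store of glucose and is held mostly by astrocytes. UDP-glucose pyrophosphorylase (Ugp2) makes the sugar donor, glycogenin (Gyg) starts the chain, glycogen synthase (Gys1, the muscle-type enzyme) lengthens it and the branching enzyme (Gbe1) adds branch points. Glycogen phosphorylase cuts the chain back and exists as brain (Pygb), muscle (Pygm) and liver (Pygl) isoenzymes, switched on by phosphorylase kinase, whose alpha subunit is Phka1 or Phka2 and whose catalytic gamma subunit is Phkg1 or Phkg2. Targeting subunits such as PTG (Ppp1r3c) and Ppp1r3d bring protein phosphatase 1 to the glycogen particle, where it activates the synthase and switches off phosphorylase and its kinase.

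Libraries held 16392876 to 25814364 reads on genes, with a median of 21167241, and each of the 9 genes had at least 182 reads in every library. The summed level of 6 astrocyte markers (Slc1a2, Slc1a3, Aldh1l1, Aqp4, Gja1 and Gfap) was 78211 to 89420 CPM (reads on a gene per 1000000 reads on all genes of the library) in the IP libraries and 4398 to 5299 CPM in INPUT. For 4 neuronal markers (Rbfox3, Snap25, Syt1 and Tubb3) the sums were 295 to 465 CPM in IP and 8477 to 9948 CPM in INPUT. Oligodendrocyte, microglial and endothelial sums were also lower in IP, with means of 101, 18.5 and 10.4 CPM in naïve IP against 877, 182 and 60.9 CPM in naïve INPUT. The 4 mural markers went both ways, since Pdgfrb had a mean of 132 CPM in naïve IP and 25.4 CPM in naïve INPUT while Rgs5 (7.75 and 22.9 CPM), Acta2 (0.189 and 1.78 CPM) and Tagln (0.410 and 1.57 CPM) were lower in IP, and their sum was 99.1 to 155 CPM in IP and 41.0 to 53.6 CPM in INPUT. None of the 26 markers was at 0 in any library. Among pairs of replicates, naïve IP replicate 11, stress IP replicate 15, naïve INPUT replicate 14 and stress INPUT replicate 9 differed most from the others of their groups (chi-square per degree of freedom of 17.1 to 21.3, 23.9 to 31.5, 13.7 to 16.3 and 18.1 to 19.2, against 4.56 to 13.1 among the other pairs). For glycogen genes whose naïve and stress values in IP did not overlap, the stress results are therefore given with and without replicates 11 and 15.

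In naïve mice all 9 genes were higher in the astrocyte translatome than in whole cortex, by 13.7-fold for Pygm to 1.55-fold for Gyg. Breakdown genes stood furthest above INPUT, the targeting subunit Ppp1r3c and the synthesis genes Gys1 and Ugp2 came next, and the branching enzyme and glycogenin were lowest. By limma on log2(CPM + 0.1) over the 13339 genes with a mean above 1 CPM, 9 of 9 were called higher at an adjusted p under 0.05, where 23.7% of all genes tested were called higher, 64.0% lower and 87.7% in either direction. The median log2 difference was 2.19 over the 9 genes and −0.64 over all genes tested. In bulk samples of this kind more cells of a type and more RNA per cell cannot be told apart. Nor can the level of an RNA in astrocytes be told apart from how much of it ribosomes held, since INPUT is not limited to ribosome-bound RNA. Together the 9 genes took 0.329% ± 0.0161 (SD, n = 4) of all gene reads in naïve IP, and 0.0455% ± 0.00102 of those in naïve INPUT.

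Pygm, the muscle-type phosphorylase, measured 487, 504, 543 and 408 CPM in naïve IP (replicates 2, 8, 11 and 13) and 35.8, 33.3, 33.2 and 39.2 CPM in naïve INPUT (3, 7, 14 and 16). The lowest IP library was more than 10 times the highest INPUT library, and the log2 difference of 3.77 (SE 0.08, adjusted p = 7.3e-14) stood at the 99.8th percentile of all genes tested. Pygb, the brain isoenzyme and the most abundant of the 9, was at 1580, 1384, 1561 and 1343 CPM in naïve IP and at 155, 159, 164 and 158 CPM in naïve INPUT. Its IP and INPUT values were likewise far apart, with a log2 difference of 3.20 (SE 0.06, adjusted p = 2.1e-14). Phka1, the muscle-type regulatory subunit of phosphorylase kinase, had 281, 248, 283 and 244 CPM in naïve IP and 29.8, 26.6, 24.7 and 28.3 CPM in naïve INPUT. This was a log2 difference of 3.27 (SE 0.07, adjusted p = 7.7e-14).

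Among the synthesis genes, Gys1 was at 108, 96.8, 101 and 98.2 CPM in naïve IP against 20.7, 24.9, 19.9 and 22.7 CPM in naïve INPUT (log2 difference 2.19, SE 0.08). Ugp2 was at 377, 343, 310 and 340 CPM against 88.4, 78.8, 74.7 and 83.8 CPM (log2 difference 2.07, SE 0.07). In neither gene did the groups overlap, and both stood above 94% of the genes tested. Gbe1 had 31.6, 30.6, 29.0 and 28.9 CPM in naïve IP and 15.6, 16.8, 15.1 and 14.7 CPM in naïve INPUT, a difference of 0.94 (SE 0.07, limma adjusted p = 3.8e-08). Gyg had 29.8, 34.3, 34.1 and 29.6 CPM in IP and 21.2, 20.0, 22.6 and 18.5 CPM in INPUT, a difference of 0.63 (SE 0.09, limma adjusted p = 1.0e-05). For these 2 genes the fractions were less than 2-fold apart, and every IP library lay above every INPUT library. Separate groups, in either direction, were seen for 11168 of the 13339 genes tested in naïve mice. In the annotation, 310 exonic bases of Gys1 are shared with Ruvbl2 on the other strand and 78 of Ugp2 with Gm12043, and whether the counting used strand is not given in the sources used here.

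The targeting subunits differed between themselves. Ppp1r3c was at 501, 543, 523 and 568 CPM in naïve IP and at 83.6, 84.3, 75.2 and 86.1 CPM in naïve INPUT, a log2 difference of 2.70 (SE 0.06, limma adjusted p = 6.1e-14). Ppp1r3d was at 28.4, 32.5, 29.0 and 33.5 CPM in IP and at 13.1, 10.7, 11.2 and 10.4 CPM in INPUT, a difference of 1.44 (SE 0.10, limma adjusted p = 5.3e-09). The groups of both genes were fully separate, as were those of 11168 of the 13339 genes tested, in either direction. The 95% intervals of the log2 differences, 2.57 to 2.82 for Ppp1r3c and 1.23 to 1.64 for Ppp1r3d, did not overlap.

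**Figure D1:**
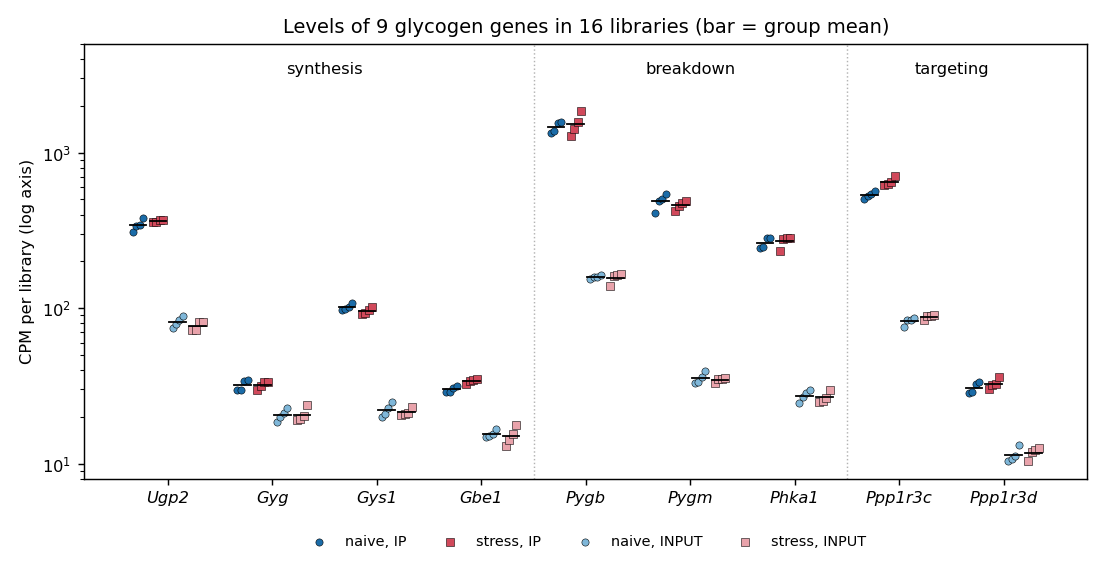
CPM of the 9 genes in each of the 16 libraries (log axis), with 1 point per library, colour and shape for the group and a bar at the group mean of 4 libraries. The IP points lie above the INPUT points for every gene, from 1288 to 1862 CPM against 139 to 166 CPM for Pygb to 29.6 to 34.3 CPM against 18.5 to 23.9 CPM for Gyg, and naïve and stress points of 1 fraction lie close together.

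After stress the same 9 of 9 genes were called higher in IP than in INPUT, where 23.6% of the 13333 genes tested were called higher, 62.5% lower and 86.1% in either direction (limma, adjusted p under 0.05). Their median log2 difference was 2.24, and −0.63 over all genes tested. Single genes had log2 differences of 3.72 (Pygm), 3.33 (Phka1), 3.27 (Pygb), 2.88 (Ppp1r3c), 2.24 (Ugp2), 2.16 (Gys1), 1.47 (Ppp1r3d), 1.17 (Gbe1) and 0.64 (Gyg), with SEs from 0.06 to 0.10. The naïve and stress orders differ only in that Ugp2 and Gys1 change places, and these 2 genes were within 0.12 of each other in both conditions. Scaling by the median ratio between libraries in place of the library total shifted the median of all genes from −0.64 to −0.0026 in naïve mice, which gave 5589 genes higher and 5642 lower against 3158 and 8540, and the 9 genes then differed by 1.27 (Gyg) to 4.41 (Pygm), all still called higher.

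Other genes of the pathway lay on both sides of INPUT. Of a list of 24 further glycogen genes, 20 passed the filter on low values, 7 of 20 were called higher and 10 of 20 lower in naïve IP against INPUT, where the shares over all genes tested were 23.7% and 64.0%. Among the most positive were Phkg1, the muscle-type catalytic subunit of phosphorylase kinase, with a log2 difference of 3.35 (SE 0.07), and Ppp1r3g, another targeting subunit, with 3.14 (SE 0.09). The 3 most negative were Pgm2l1, a glucose 1,6-bisphosphate synthase, with −3.61 (SE 0.07), Gsk3a, a kinase that inhibits glycogen synthase, with −2.32 (SE 0.06), and Ppp1r3f, a further targeting subunit, with −2.20 (SE 0.12). Pygl, the liver phosphorylase, was low but higher in IP (6.04 to 10.8 CPM against 2.18 to 3.56 CPM, log2 difference 1.24, SE 0.21, limma adjusted p = 7.4e-05). Gys2, the liver synthase, had 0 to 3 reads in each library and Ppp1r3a, the muscle targeting subunit, 0 to 1, so neither was detectable beyond the limit of 3 reads, and for neither is a fold given.

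Outside the naming rule, and chosen after their values were seen, the remaining phosphorylase kinase subunits are given because they pair with Phka1. Phkb, the beta subunit shared by all forms of the kinase, was higher in naïve IP by 1.77 (SE 0.06), with 150 to 171 CPM against 47.2 to 49.3 CPM. Phka2, the liver-type alpha subunit, was lower by 0.83 (log2 difference −0.83, SE 0.08), with 18.5 to 21.5 CPM against 33.1 to 37.4 CPM, and stayed lower at −0.19 with median ratio scaling (limma adjusted p = 0.025). Phkg2, the liver and testis type catalytic subunit, had a log2 difference of −0.49 (SE 0.09) that turned to 0.15 (limma adjusted p = 0.090) with median ratio scaling, so its direction depends on the scaling. With that scaling 12 of 20 further genes were called higher and 6 of 20 lower, where 41.9% and 42.3% of all genes tested were, and besides Phkg2 the differences of Epm2a (laforin, −0.34 to 0.29), Gsk3b (−0.28 to 0.36) and Ppp1cb (a catalytic subunit of protein phosphatase 1, −0.58 to 0.06) changed sign.

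**Figure D2:**
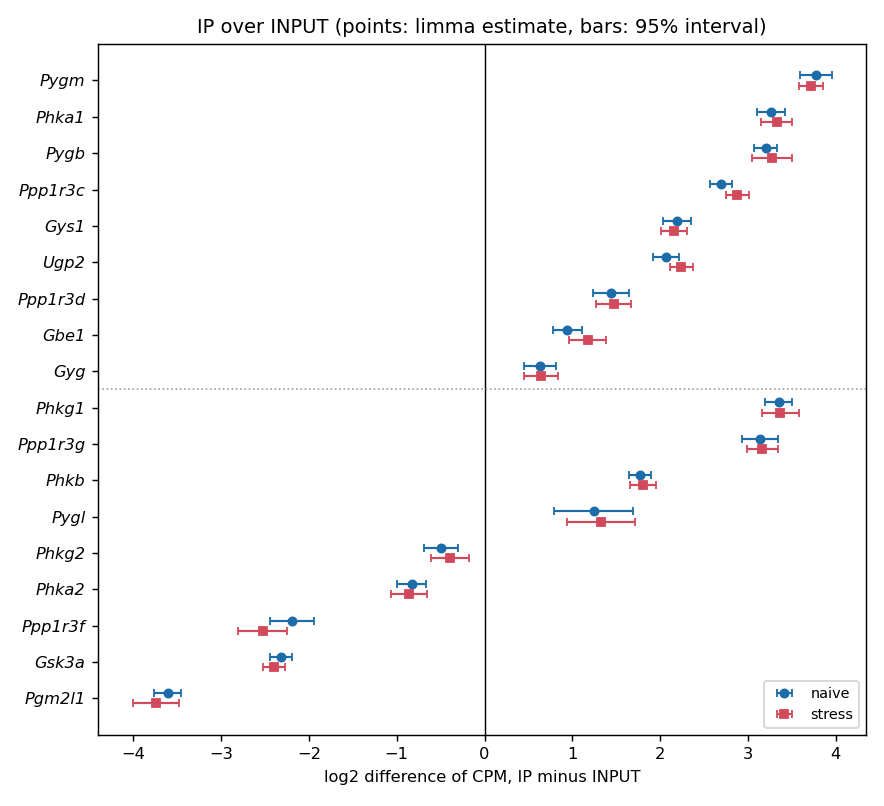
Log2 difference of CPM between IP and INPUT in naïve (circles) and stressed mice (squares) for the 9 genes, above the dotted line, and 9 further glycogen genes, below it, with limma estimates and 95% intervals. All 9 genes lie to the right of 0, with Pygm furthest at 3.77 and Gyg nearest at 0.63 in naïve mice, and Phka1 (3.27) and Phkg1 (3.35) lie far from their paralogs Phka2 (−0.83) and Phkg2 (−0.49).

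Levels of different genes were compared only per kb of exon. Per kb, the order in naïve IP was Pygb (305 ± 25.1 CPM per kb, SD, n = 4), Ppp1r3c (196 ± 10.3), Pygm (151 ± 17.6), Ugp2 (112 ± 8.97), Phka1 (42.2 ± 3.33), Gys1 (21.1 ± 1.01), Gyg (13.6 ± 1.12), Ppp1r3d (9.44 ± 0.772) and Gbe1 (5.61 ± 0.241). No neighbours in that order had overlapping ranges over the 4 naïve IP libraries. In naïve INPUT the order was Pygb (33.1 ± 0.809), Ppp1r3c (30.2 ± 1.79), Ugp2 (26.5 ± 1.94), Pygm (11.0 ± 0.868), Gyg (8.78 ± 0.759), Gys1 (4.61 ± 0.463), Phka1 (4.37 ± 0.350), Ppp1r3d (3.48 ± 0.372) and Gbe1 (2.91 ± 0.165). There the ranges of Ppp1r3c and Ugp2, of Gys1 and Phka1, and of Phka1 and Ppp1r3d overlapped. With only the exons of transcripts matched to RefSeq, the ranges of Ppp1r3c and Pygm in naïve IP overlapped too and Gbe1 (10.1 CPM per kb) stood above Ppp1r3d (9.44 CPM per kb), with overlapping ranges. In naïve INPUT these lengths put Gbe1 above Phka1 and Ppp1r3d, and the ranges of Gbe1 and Phka1 did not overlap. There the ranges of Pygm and Gyg, and of Gys1 and Gbe1, overlapped.

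Within the families compared, Pygb, Gys1, Phka1, Phkg1 and Ppp1r3c held the largest share in naïve IP. Of the summed phosphorylase level per kb, Pygb made up 66.8% ± 2.00 (SD, n = 4) in naïve IP, Pygm 33.0% ± 1.97 and Pygl 0.239% ± 0.0565, against 74.3% ± 1.76, 24.7% ± 1.69 and 1.01% ± 0.197 in naïve INPUT. The share of Pygm was thus larger in every naïve IP library (31.1 to 35.1%) than in any naïve INPUT library (23.0 to 26.7%). Gys1 made up 99.9% ± 0.0379 of the synthase level in naïve IP. Phka1 was 92.9% ± 0.360 of the alpha subunit level in naïve IP and 43.2% ± 1.80 in naïve INPUT, where Phka2 was the larger. Phkg1 was 75.6% ± 1.16 of the gamma subunit level in naïve IP and 17.7% ± 1.02 in naïve INPUT. So the 2 muscle-type subunits of phosphorylase kinase were the larger share in the astrocyte translatome and the smaller share in whole cortex. Of 7 targeting subunits Ppp1r3c held 78.8% ± 1.44 in naïve IP, Ppp1r3g 16.3% ± 1.61 and Ppp1r3d 3.80% ± 0.196, against 67.7% ± 2.24, 10.3% ± 1.41 and 7.81% ± 0.899 in naïve INPUT, where Ppp1r3f held 10.5% ± 1.40. These shares are descriptions and were not tested. The log2 ratio of Gys1 to the sum of the phosphorylases per kb was −4.44 ± 0.10 in naïve IP and −3.28 ± 0.15 in naïve INPUT, and stress IP and stress INPUT were at −4.52 ± 0.20 and −3.29 ± 0.09.

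**Figure D3:**
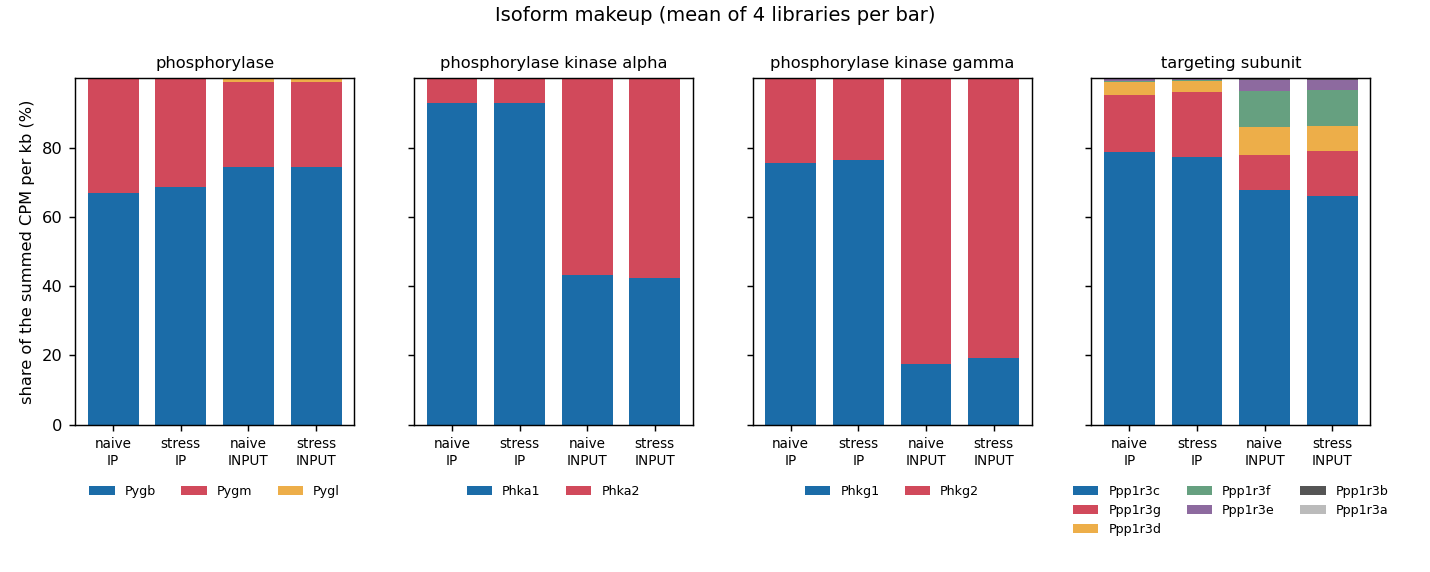
Share (%) of each isoform in the summed CPM per kb of its family, as stacked bars that are means of 4 libraries for the 4 groups. Pygb and Pygm fill the phosphorylase bars, and Phka1 and Phkg1 go from 43.2% and 17.7% in naïve INPUT to 92.9% and 75.6% in naïve IP, with the stress bars beside the naïve bars of the same fraction.

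Whether swim stress moved these genes was asked within each fraction. In the astrocyte translatome 0 of 9 were called by limma at an adjusted p under 0.05, where 0.440% of the 12501 genes tested were called (55 genes), and 2 of 9 had an unadjusted p under 0.05, as did 8.27% of all genes tested. Limma-voom on the reads recovered from the values also called 0 of 9. The 2 genes were Ppp1r3c and Gbe1, which were also the ones among the 9 whose stress values did not overlap the naïve values, while 5.00% of all genes tested had groups that did not overlap. The median log2 difference, stress minus naïve, was 0.05 over the 9 genes and −0.0036 over all genes tested.

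Ppp1r3c, the targeting subunit PTG, measured 501, 543, 523 and 568 CPM in naïve IP (replicates 2, 8, 11 and 13) and 633, 616, 644 and 705 CPM in stress IP (4, 5, 6 and 15). All 4 stress libraries lay above all 4 naïve libraries, with replicate 15 highest. The mean was 1.22-fold that of naïve mice, a log2 difference of 0.28 (SE 0.06, 95% interval 0.15 to 0.41). It missed the threshold over all genes (limma adjusted p = 0.088, unadjusted p = 0.00057). The two-sided exact permutation test gave p = 0.029, the smallest that 4 against 4 libraries allow. Any gene whose groups are separate gets this p, so it adds nothing to the separation. The call depended on the fit. With array weights, which called 143 of the 12501 genes tested against 55 in the main fit, the limma adjusted p was 0.046. With all 16 libraries in one limma model, which called 124 genes, it was 0.017. Over all alternatives the limma adjusted p ranged from 0.017 to 0.31, while the log2 difference stayed between 0.24 and 0.31. Without stress replicate 15 it was 0.24 (limma adjusted p = 0.081), in a fit that called 101 genes. Without naïve replicate 11 it was 0.27 (limma adjusted p = 0.12), in a fit that called 122 genes.

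In INPUT the same gene was at 83.6, 84.3, 75.2 and 86.1 CPM in naïve mice and at 88.3, 89.4, 84.0 and 90.8 CPM after stress. Here the groups overlapped and the log2 difference was 0.10 (SE 0.06, limma adjusted p = 0.99). The difference between the IP and the INPUT effect, tested on all 16 libraries, was 0.18 (SE 0.08, 95% interval 0.01 to 0.35, limma adjusted p = 1.00, unadjusted p = 0.038), so a stronger effect in IP was not shown over all genes.

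Gbe1, the branching enzyme, was at 31.6, 30.6, 29.0 and 28.9 CPM in naïve IP and at 34.9, 32.5, 33.8 and 34.5 CPM in stress IP. Here too the groups were separate, by 0.97 CPM between the lowest stress and the highest naïve library. The log2 difference was 0.18 (SE 0.06, 95% interval 0.04 to 0.32, limma adjusted p = 0.47, exact permutation p = 0.029), and no alternative called it. Without naïve replicate 11 it was 0.16 and without stress replicate 15 it was 0.17. In INPUT, Gbe1 was at 14.7 to 16.8 CPM in naïve mice and at 13.0 to 17.7 CPM after stress, a log2 difference of −0.05 (95% interval −0.27 to 0.17).

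The other 7 genes gave stress differences in IP of −0.08 to 0.09 on the log2 scale, none with an unadjusted p under 0.05. Gys1 was at 96.8 to 108 CPM in naïve IP and 92.3 to 101 CPM in stress IP, with a log2 difference of −0.07 and a 95% interval of −0.19 to 0.06. Ugp2 was at 310 to 377 CPM and 359 to 370 CPM, with a difference of 0.09 (−0.04 to 0.23). The stress libraries of Ugp2 lay inside the naïve range. For Gyg the 2 groups had almost the same mean in IP, 32.0 CPM in both, with a log2 difference of 0.00 (−0.16 to 0.17). Pygb, at 1343 to 1580 CPM in naïve IP, spread from 1288 to 1862 CPM in stress IP, and its difference of 0.05 had the widest interval of the 9 genes, −0.17 to 0.28. Leaving out stress replicate 15, the highest library, turned the estimate for Pygb to −0.04. Pygm was at 408 to 543 CPM and 419 to 486 CPM (−0.08, interval −0.26 to 0.10), Phka1 at 244 to 283 CPM and 233 to 285 CPM (0.03, −0.14 to 0.20) and Ppp1r3d at 28.4 to 33.5 CPM and 30.3 to 35.9 CPM (0.08, −0.09 to 0.26). In all 7 genes the naïve and stress ranges overlapped, and the intervals left room for log2 changes of up to 0.28 in size.

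In whole cortex 0 of 9 genes were called after stress (limma, adjusted p under 0.05), 0 of 9 had an unadjusted p under 0.05 (5.03% of all genes tested did) and 0 of 9 had separate groups, where 0.0442% of the 13577 genes tested were called (6 genes) and 2.87% had groups that did not overlap. With limma-voom on the recovered reads the count was also 0 of 9. The 9 differences ran from −0.08 (Ugp2) to 0.10 (Ppp1r3c), with a median of −0.03 against −0.0025 over all genes tested. Outside the 2 targeting subunits (0.10 and 0.05) all 7 other estimates were below 0, and each of their 95% intervals included 0. For the difference between the stress effects of the 2 fractions, 0 of 9 genes were called, where 0.0225% of the 13341 genes tested were called (3 genes), and 1 of 9, Ppp1r3c, had an unadjusted p under 0.05, as did 4.71% of all genes tested. Limma-voom on the recovered reads also called 0 of 9.

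**Figure D4:**
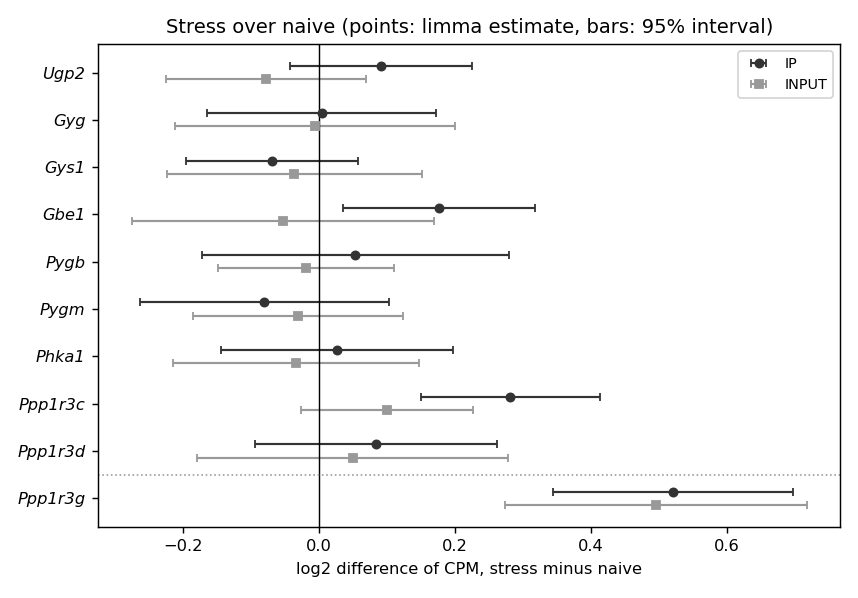
Log2 difference of CPM, stress minus naïve, in IP (dark circles) and INPUT (grey squares) for the 9 genes and Ppp1r3g, with limma estimates and 95% intervals. In IP the intervals of Ppp1r3c (0.15 to 0.41) and Gbe1 (0.04 to 0.32) lie above 0, those of the other 7 of the 9 genes include 0, and Ppp1r3g lies at 0.52 in IP and 0.50 in INPUT.

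Of the 24 further glycogen genes, 20 were tested in IP after stress, and 2 of 20 had an unadjusted p under 0.05, as did 8.27% of all genes tested. At an adjusted p under 0.05, 1 of 20 was called, where 0.440% of the 12501 genes tested were. That gene was Ppp1r3g, which encodes another subunit that targets protein phosphatase 1 to glycogen. It measured 105, 106, 124 and 102 CPM in naïve IP (replicates 2, 8, 11 and 13) and 156, 177, 142 and 151 CPM in stress IP (4, 5, 6 and 15). The stress libraries all lay above the naïve ones, of which replicate 11 was the highest. Ppp1r3g rose 1.44-fold, a log2 difference of 0.52 (SE 0.08, 95% interval 0.35 to 0.70, limma adjusted p = 0.018). That call was lost without any one of naïve replicates 2, 8 or 13 or stress replicates 4 or 5 (limma adjusted p of 0.061 to 0.094) and with no variance trend (limma adjusted p = 0.11), while the difference stayed at 0.46 to 0.58. Those fits called only 17 to 24 of all genes tested, against 55 in the main fit. Without naïve replicate 11 the difference was 0.58 (limma adjusted p = 0.0022), in a fit that called 122 genes. Without stress replicate 15 it was 0.54 (limma adjusted p = 0.013), in a fit that called 101 genes.

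In INPUT, Ppp1r3g was at 12.0, 13.1, 13.7 and 10.4 CPM in naïve mice and at 19.0, 16.7, 17.5 and 16.3 CPM after stress, again with no overlap. The log2 difference was 0.50 (SE 0.10, limma adjusted p = 0.16, unadjusted p = 0.00031). In INPUT, 0 of 21 further genes tested passed the threshold, where 0.0442% of all genes tested did. An unadjusted p under 0.05 was seen for 1 of 21, and for 5.03% of all genes tested. The 2 fractions did not differ detectably in the stress effect on Ppp1r3g (difference 0.03, 95% interval −0.24 to 0.29). As a share of the 7 targeting subunits per kb, Ppp1r3g was 16.3% ± 1.61 in naïve IP and 18.8% ± 2.02 in stress IP, and 10.3% ± 1.41 in naïve INPUT and 13.1% ± 0.908 in stress INPUT, so that Ppp1r3c was still the largest at 77.2% ± 2.25 and 65.9% ± 1.34 after stress.

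The astrocyte marker sum was 80843 to 85622 CPM in naïve IP and 78211 to 89420 CPM in stress IP, and the neuronal sum 371 to 465 CPM and 295 to 401 CPM, so the groups overlapped in both. Slc1a2 made up most of the astrocyte sum, with a mean of 70368 of 83720 CPM in naïve IP. The endothelial sum was 8.68 to 12.4 CPM in naïve IP and 6.59 to 8.53 CPM in stress IP, without overlap. Of 21 markers tested in IP after stress, 0 were called by limma at an adjusted p under 0.05, where 0.440% of all genes tested were. An unadjusted p under 0.05 was seen for 5 of 21 markers, and for 8.27% of all genes tested. The 5 were the astrocyte markers Gfap (log2 difference 0.25) and Aqp4 (0.20, groups not overlapping), the neuronal marker Snap25 (−0.33), the mural marker Pdgfrb (−0.25) and the endothelial marker Flt1 (−0.44), with limma adjusted p of 0.31 to 0.60. The part of these cell types in the stress results was not tested. The other 4 astrocyte markers, Aldh1l1, Slc1a3, Slc1a2 and Gja1, had log2 differences of 0.08, 0.02, −0.04 and −0.07.

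**Figure D5:**
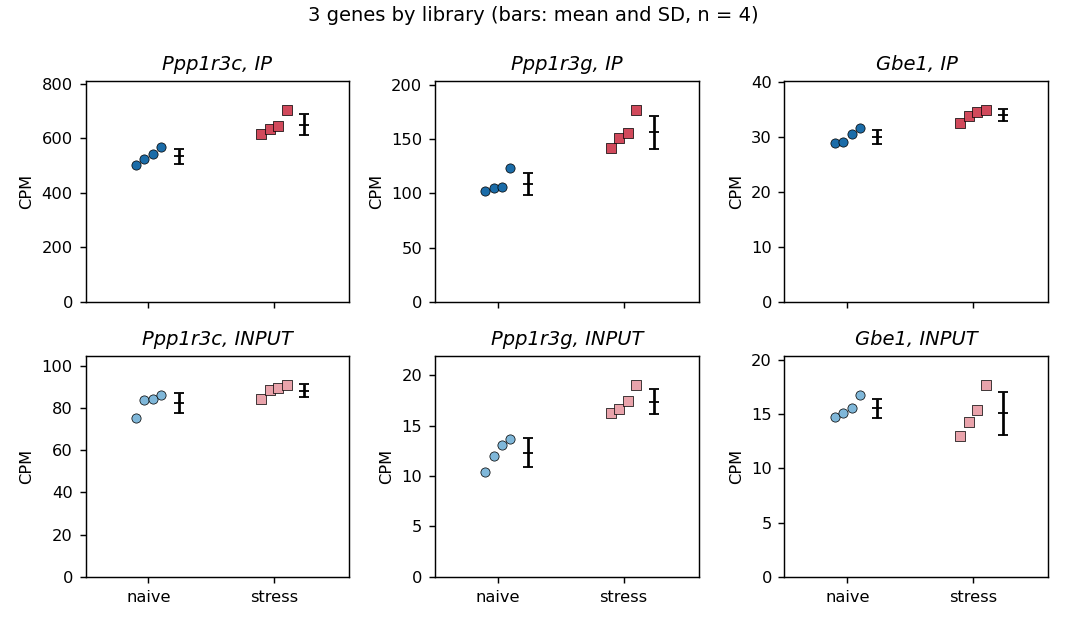
CPM of Ppp1r3c, Ppp1r3g and Gbe1 in each library, naïve beside stress, in IP (top) and INPUT (bottom), with linear axes from 0 and a bar for mean and SD of 4 libraries. In IP the 4 stress points lie above the 4 naïve points for all 3 genes, and in INPUT only for Ppp1r3g, at 16.3 to 19.0 CPM against 10.4 to 13.7 CPM.

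The sequence upstream of these 3 genes is shown because their stress and naïve values in IP did not overlap. The stretches run from 250 to 51 bases before the RefSeq start site in GRCm38.p6 and are written 5′ to 3′ on the strand of the gene, chr19:36736655-36736854 on the minus strand, chr13:35967656-35967855 on the plus strand and chr16:70313699-70313898 on the plus strand. Capitals mark the E-box letters CACGTG. In GENCODE M21, Ppp1r3g spans chr13:35958839-35970388 on the plus strand, so the stretch before its RefSeq start lies within the gene there.
Ppp1r3c: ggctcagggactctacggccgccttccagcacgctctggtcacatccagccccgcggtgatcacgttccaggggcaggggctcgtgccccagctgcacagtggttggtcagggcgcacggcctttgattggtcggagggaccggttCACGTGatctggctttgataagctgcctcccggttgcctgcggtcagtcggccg
Ppp1r3g: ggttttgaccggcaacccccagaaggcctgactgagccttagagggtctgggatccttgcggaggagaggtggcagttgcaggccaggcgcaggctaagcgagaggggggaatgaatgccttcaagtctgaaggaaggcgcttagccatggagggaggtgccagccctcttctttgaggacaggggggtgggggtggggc
Gbe1: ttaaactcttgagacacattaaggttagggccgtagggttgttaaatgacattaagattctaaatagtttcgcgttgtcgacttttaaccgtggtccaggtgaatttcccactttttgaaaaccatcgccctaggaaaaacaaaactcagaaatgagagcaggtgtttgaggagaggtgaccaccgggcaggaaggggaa
Over the 250 bases before the start site, read on both strands, CACGTG was found upstream of Ppp1r3c (104 bases before the start) and Ppp1r3d (226 bases before), 2 of 9 genes, and upstream of 6.86% of all 27025 genes with a RefSeq promoter. The letters ATTGG, the CCAAT box read on the other strand, were found for Gys1, Ppp1r3c and Ugp2, 3 of 9, and for Ppp1r3g, against 37.5% of all genes. The short glucocorticoid receptor motif AGAACA was found for 0 of 9 (18.2% of all genes) and the TATA box letters TATAAA for 0 of 9 (14.3%), and neither was found for Ppp1r3g. A match describes letters only, and no binding was measured.

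On GRCm38 the genes lie at chr11:21321138-21371201 (Ugp2, minus strand), chr3:20122084-20155317 (Gyg, minus), chr7:45434844-45456619 (Gys1, plus), chr16:70313949-70569716 (Gbe1, plus), chr2:150786735-150831758 (Pygb, plus), chr19:6384399-6398459 (Pygm, plus), chrX:102513975-102644246 (Phka1, minus), chr19:36731731-36736653 (Ppp1r3c, minus) and chr2:178411206-178414472 (Ppp1r3d, minus), as GENCODE M21 gives them. No exon of the 9 genes other than Gys1 and Ugp2 shares bases with another gene there.

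The genes whose log2 levels over the 16 libraries were most like each of the 9, among 9528 genes with a mean of at least 10 CPM, had Pearson correlations of 0.971 to 0.999. For Pygb they were Aldh1l1, Egfr and Pcx, for Pygm Tpp1, Mthfd1 and Pgm2, for Phka1 Htra1, Vcam1 and Slc39a12, for Ppp1r3c Aqp4, Arhgap5 and Slc14a1 and for Ppp1r3d Smpd2, Tor1aip2 and Slc25a20. Those of Gys1 were Slc4a4, Dag1 and Itpr2, those of Ugp2 Decr1, Ptn and Abhd3, those of Gbe1 Dhrs7, Ddo and Ggh and those of Gyg Ccbl2, Snx14 and Eci2. Since the libraries fall into IP and INPUT, these values mostly describe that split, and 1648 to 1953 genes reached 0.9 with each of the 9.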

How the data were processed

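Cortical RNA of Aldh1l1CreERT2-RiboTag mice was sequenced in 16 libraries, 4 in each of 4 groups, after ribosomal RNA depletion and TruSeq library preparation. STAR alignments to mm10 and HTSeq fragment counts on RefSeq genes, from uniquely mapped reads, were made by the authors, who deposited log2 CPM for 24060 genes in each library, scaled to the library total with no length correction. Per the file values, the lowest log2 CPM of −6.40 stands for 0 reads and whole reads could be recovered for 100% of values, with 16392876 to 25814364 reads per library. The limit of 3 reads covers counting error only, while the 95% intervals come from the limma fits and reflect the spread between libraries. From the deposited log2 CPM the CPM was recomputed, and limma 3.58.1 (lmFit, eBayes with trend; R 4.3.3) compared groups on log2(CPM + 0.1) for genes averaging over 1 CPM across the libraries of a comparison, so fold changes of low genes are understated. Benjamini-Hochberg adjusted p under 0.05 over all genes tested was the threshold, with a two-sided exact permutation test of single genes over 70 labelings beside it. IP and INPUT of both conditions, and stress and naïve of both fractions, were compared on 8 libraries each, and the stress effects of the fractions on all 16.

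The other settings tried were 1 or 0.01 as pseudocount, a filter at 5 CPM or none, median ratio scaling, no variance trend, array weights, limma-voom (the study's method) on recovered reads, all 16 libraries in one model, Xist-based sex as a covariate and each library left out. Exon lengths per kb were those of all exons in GENCODE M21, and exons of RefSeq-matched transcripts, as well as the alternatives for Ppp1r3g, were added after seeing the data. The fit was tested on simulated data. The 9 genes, the list of 24 further glycogen genes and the markers were chosen with earlier results of these data known. Genes named were the 9, the further genes past the threshold after stress, the 3 most positive and 3 most negative between IP and INPUT in naïve mice, Pygl, Gys2 and the 3 genes most like each of the 9. One gene that this rule names entered the counts but is not reported here. Promoters were from RefSeq, where all 9 symbols and 19 of the 24 further symbols matched. Plots used matplotlib 3.10.9, and tables pandas 2.3.3 and NumPy 2.4.6 in Python 3.11.15. The symbols Pgm1 and Pgm2 have been exchanged between mouse annotations, so no position is given for them.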

Additional observations from a re-analysis of the deposited data

Results flagged for a closer look

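Of 44 sets of 4 libraries examined (the 9 genes, Ppp1r3g and Pygl in each group), 3 held a library far from the other 3, where chance flags about 1 in 20 groups, or 2.2 of 44. Pygb was at 139 CPM in stress INPUT replicate 10, against 161 to 166 CPM in the other stress INPUT libraries. Phka1 was at 233 CPM in stress IP replicate 6, whereas the rest of that group lay at 277 to 285 CPM. Ppp1r3g was at 124 CPM in naïve IP replicate 11, whereas the rest of that group lay at 102 to 106 CPM, which put it nearer to the stress values of 142 to 177 CPM.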

How the results depend on the processing

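All 9 genes were called higher in IP than in INPUT under every alternative, in naïve and in stressed mice, with the smallest log2 difference at 0.58 (Gyg). Of all genes tested, 23.7% in naïve and 23.6% in stressed mice were called higher in the main fits. With median ratio scaling these shares were 41.9% and 40.8%. In the stress comparisons, Ppp1r3c alone crossed the threshold, giving 1 of 9 genes called in IP with array weights and with all 16 libraries in one model. Those settings called 143 and 124 of the 12501 genes tested, against 55 in the main fit. The count of further genes called in IP was 0 with no variance trend, where 19 of all genes tested were called. It was 0 to 1 when single libraries were left out, in fits that called 17 to 122 of 12490 to 12507 genes tested. In INPUT it was 1 with array weights (Ppp1r3g, limma adjusted p = 0.030), a setting that called 50 of the 13577 genes tested. With array weights the INPUT difference of Gyg was 0.0020 and the differences between fractions were −0.036 for Ppp1r3d and −0.0075 for Ppp1r3g, each with the other sign. Small estimates changed sign when single libraries were left out. In IP these were Gyg (−0.030 to 0.040), Phka1 (−0.0096 to 0.095) and Pygb (−0.044 to 0.13). In INPUT they were Gyg (−0.079 to 0.042), Phka1 (−0.089 to 0.0086), Gys1 (−0.082 to 0.024), Pygm (−0.060 to 0.019), Gbe1 (−0.13 to 0.017) and Pygb (−0.045 to 0.039). Between the fractions they were Gyg (−0.037 to 0.084), Ppp1r3d (−0.036 to 0.075), Pygm (−0.13 to 0.0077), Ppp1r3g (−0.036 to 0.10), Pygb (−0.025 to 0.15) and Gys1 (−0.092 to 0.014). The cause was not tested. RefSeq-matched exon lengths moved 17 of 32 values per kb by more than 1 SD, isoform shares by at most 5.72 percentage points, the share of Pygl from 0.239% to 0.488% in naïve IP and from 1.01% to 2.03% in naïve INPUT, and the log2 ratio of Gys1 to phosphorylase by at most 0.12. No paired analysis was possible because the groups share no replicate number. Depth limited Ppp1r3d most among the 9 genes, with as few as 182 reads in a library.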

Other observations

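Other glycogen genes were near the limit of detection. Stbd1, which carries glycogen to lysosomes, had 0 to 21 reads in a library, with a mean of 0.0705 CPM in naïve IP and 0.838 CPM in naïve INPUT, and Ppp1r3b, the liver-type targeting subunit, had 2 to 32 reads, with means of 0.303 CPM and 0.977 CPM. Gaa, the lysosomal enzyme that breaks down glycogen, was at 239 to 291 CPM in naïve IP and 209 to 277 CPM in naïve INPUT, and the log2 difference was 0.12 (SE 0.09, limma adjusted p = 0.20). Nhlrc1 (malin) had a log2 difference of 0.13 (SE 0.12, limma adjusted p = 0.35) in naïve mice. After stress it was 0.25 (SE 0.11, limma adjusted p = 0.045), with every IP library above every INPUT library. Separate groups, in either direction, were seen for 10858 of the 13333 genes tested after stress. With median ratio scaling both were called higher in naïve IP (0.76 for Gaa and 0.76 for Nhlrc1), so in naïve mice their calls depend on how the libraries are scaled to each other. These 4 genes were chosen after their values were seen.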
